A study of Mus musculus with 16 samples.

Results

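Brown adipose tissue (BAT) of male mice with and without *Gdf15* in their thermogenic adipocytes was compared across all expressed genes and transcripts. The 8 male libraries of the 16 in the series were taken by their labelled sex and genotype: 4 knockout (KO) and 4 wild type (WT), each from bulk polyA RNA. All mice were on the C57BL6/J background and carried floxed *Gdf15* alleles (Gdf15 fl/fl). KO mice (GDF15 BKO) also carried Tg(Ucp1-cre)1Evdr, a transgene that places Cre recombinase under the *Ucp1* promoter, and WT littermates lacked it. Tissue was collected at 18 weeks of age, after 12 weeks on a high-fat diet (HFD) with 60% of its energy from fat. Cre acts where *Ucp1* is expressed, so *Gdf15* remained intact in the other cells of the depot, and carrying the transgene cannot be told apart from losing *Gdf15* in this design.

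GDF15 is a secreted member of the TGF-beta superfamily that cells release under mitochondrial, nutrient or endoplasmic reticulum stress. Its known receptor, GFRAL, is found in the hindbrain, where GDF15 lowers food intake. BAT burns lipid and glucose to produce heat through UCP1, which uncouples respiration in mitochondria, and the depot also holds vessels, nerves, fibroblasts and immune cells.

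Values are TPM, a measure of abundance that divides reads by transcript length and sums to a fixed total in each library, so the reads behind a value are not known and precision rests on the spread between libraries. In every male library *Ucp1* lay between 3074 and 4355 TPM, and *Cidea*, a lipid droplet protein of brown adipocytes, between 1295 and 1915 TPM. The chromosome Y gene *Ddx3y* was between 8.61 and 12.1 TPM in all 8 libraries while *Xist* did not exceed 0.009 TPM. Transcripts of the mitochondrial genome held 43.9 to 59.8% of TPM in WT and 44.0 to 51.5% in KO, with WT 1 the highest. Library names began with 5 for WT 1 and 2, with 10 for KO 1 and with 9 for the other 5 male libraries, a number whose meaning is not stated.

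The targeted gene was low even in WT. *Gdf15* measured 0.368, 0.690, 1.55 and 3.81 TPM in the 4 WT libraries and 0.0915, 0.0801, 0.255 and 0.272 TPM in the 4 KO libraries. Every KO library was below every WT library, with WT 4 far above the other WT libraries. The difference on the scale of log2(TPM + 0.5) was -1.38 (p = 0.0286 by a two-sided exact permutation test, which cannot go lower with 4 against 4). All of the WT signal came from the transcript *Gdf15-202*, and the 0.0915 TPM of KO 1 came from *Gdf15-201*.

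The ranking of all genes was led by few large differences over a broad, small shift. Of 12176 genes with a mean of at least 1 TPM, 1 passed an adjusted p of 0.05 in limma (0.00821%). At an unadjusted p under 0.05, 2150 genes (17.7%) were higher in KO and 130 (1.07%) were lower. Every KO library exceeded every WT library for 1163 genes (9.55%) and was below every WT library for 82 (0.673%). All genes together had a median log2 fold change of 0.16, and 79.9% of genes had a positive value. This asymmetry depended on how libraries were scaled. Median-of-ratios scaling sets the typical gene equal between libraries. With it the median was 0.01, and 1042 genes (8.56%) were higher against 862 (7.08%) lower. Higher genes were thus 94.3% of those past the unadjusted threshold in the deposited TPM, 76.6% when transcripts of the mitochondrial genome were removed, and 54.7% after median-of-ratios scaling. Fold changes are therefore read below against the shift of 0.16.

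**Figure D1:**
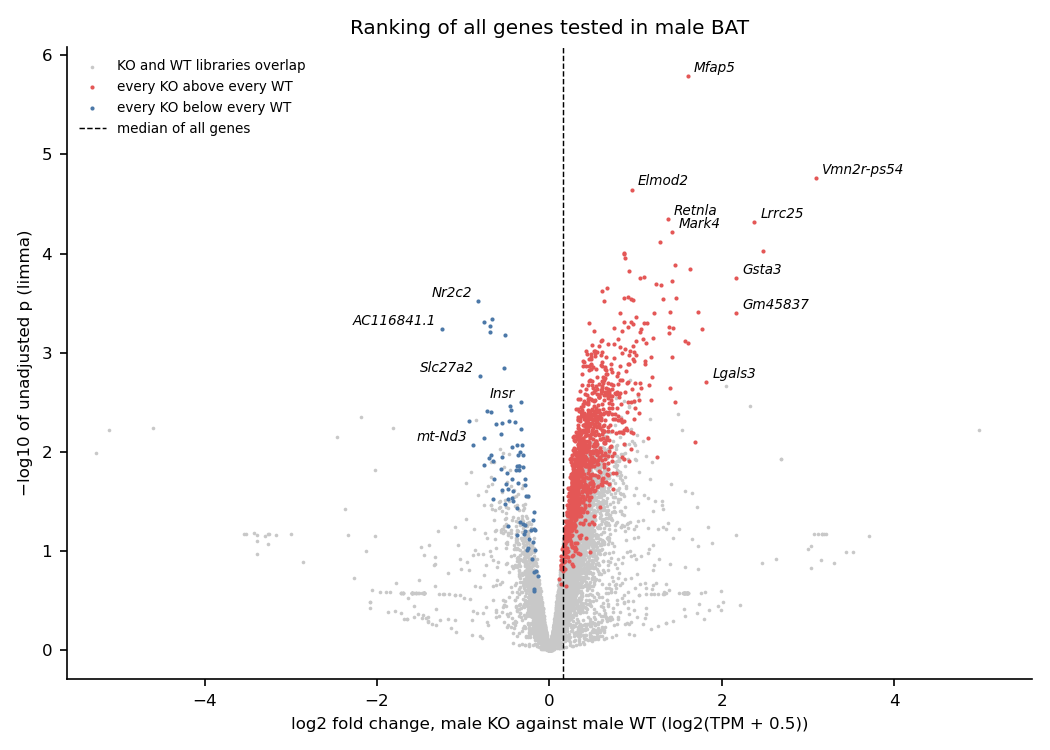
Each point is 1 of the 12176 genes tested, with the log2 fold change of male KO against male WT on the x axis and −log10 of the unadjusted limma p on the y axis. Red points are genes with every KO library above every WT library (1163), blue points are those with every KO library below (82), and the dashed line marks the median of all genes (0.16), to the right of 0.

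Collagens and genes on the macrophage lists were a small part of the head of the ranking, though a larger part than of all genes. Among the 100 higher genes with the smallest p, 7 were collagens, 7 were on the macrophage lists and 86 were neither. Genes counted as neither included *Lrrc25*, of myeloid cells, and the matrix genes *Mfap5*, *Bgn* and *Islr*. The 100 genes had a median level of 5.45 TPM and a median log2 fold change of 0.94, and 4 of them were not protein coding. The 100 lower genes with the smallest p held no collagen and no gene of those lists, 6 of the zinc finger genes named *Zfp*, and 31 genes that do not code for protein. Their median change in size was smaller in the deposited TPM, at 0.53, a scale on which all genes together were shifted up by 0.16. Of all 12176 genes, 22 were collagens, 39 were on the macrophage lists, 260 were *Zfp* genes and 1268 were not protein coding. A difference over 1 on the log2 scale was seen for 193 higher genes, of which 55 did not overlap between groups, and for 111 lower genes, of which 1 did not overlap.

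*Mfap5*, a glycoprotein of elastic microfibrils made by fibroblasts, was the 1 gene that rose past the adjusted threshold. It measured 2.21, 2.37, 2.55 and 2.91 TPM in WT and 6.69, 10.1, 9.92 and 8.30 TPM in KO. The lowest KO library was thus well above the highest WT library. Its log2 fold change was 1.61 (SE 0.14, n = 4 per group, limma adjusted p = 0.0197) and ranged from 1.46 to 1.75 over the alternative settings. The call of *Mfap5* was lost without a TPM minimum (limma adjusted p = 0.0693) and without any 1 of WT 1, WT 2, WT 3, KO 2, KO 3 and KO 4 (limma adjusted p = 0.0591 to 0.142).

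The next genes in the ranking were a pseudogene and a neighbour of *Ucp1*. *Vmn2r-ps54*, a pseudogene of the vomeronasal receptors, was at 0, 0.0597, 0.0402 and 0 TPM in WT and at 1.54, 4.43, 4.49 and 7.49 TPM in KO. It was close to silent in all WT mice and in the female libraries of both genotypes, which did not exceed 0.153 TPM. *Elmod2*, a GTPase-activating protein for ARF family GTPases that is linked to lipid droplets and mitochondria, measured 3.45, 4.15, 4.52 and 4.78 TPM in WT and 7.93, 9.77, 8.87 and 7.99 TPM in KO. The groups did not overlap and each varied little. Its log2 fold change was 0.96 (SE 0.12, limma adjusted p = 0.0921), against 3.09 (SE 0.37, limma adjusted p = 0.0921) for *Vmn2r-ps54*. *Gm40655*, a non-coding gene, was likewise at or near 0 in WT (at most 0.0329 TPM) and between 0.826 and 4.33 TPM in KO, with KO 4 highest, as it was for *Vmn2r-ps54* and *Lrrc25*.

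Genes of myeloid cells and of signalling followed. *Retnla*, a secreted product of alternatively activated macrophages, measured 3.12, 4.17, 3.87 and 5.77 TPM in WT and 9.79, 10.2, 14.6 and 12.1 TPM in KO (log2 fold change 1.37, SE 0.19, limma adjusted p = 0.117). *Capg*, a capping protein of actin filaments, was at 2.07, 3.95, 2.63 and 3.97 TPM in WT and at 7.44, 7.66, 8.62 and 8.97 TPM in KO (log2 fold change 1.28). In both genes all KO libraries were above all WT libraries. *Axl*, a receptor tyrosine kinase that recognises apoptotic cells through its ligand Gas6, measured 3.96, 5.68, 5.42 and 5.22 TPM in WT and 8.17, 9.70, 9.81 and 10.7 TPM in KO (log2 fold change 0.86). *Trem2*, a lipid-sensing receptor of macrophages, was below 1 TPM in every WT library (0.225 to 0.663) and above it in every KO library (1.39 to 2.69). *Mark4*, a kinase of microtubule-associated proteins, measured 8.45, 5.75, 4.68 and 6.80 TPM in WT and 18.8, 20.9, 19.5 and 12.8 TPM in KO (log2 fold change 1.43). The groups stood apart again, with KO 4 the lowest of the KO libraries.

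Matrix genes outside the collagens were also near the head. *Bgn*, a small leucine-rich proteoglycan that binds collagen and TGF-beta, measured 23.1, 32.2, 24.4 and 32.0 TPM in WT and 46.0, 53.1, 53.1 and 52.8 TPM in KO (log2 fold change 0.88, SE 0.13, limma adjusted p = 0.121). *Islr*, a secreted protein of mesenchymal cells, was between 1.61 and 2.20 TPM in WT and between 3.44 and 4.63 TPM in KO (log2 fold change 0.86). Neither gene overlapped between genotypes, yet both missed the adjusted threshold.

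By size of change, *Gsta3*, a glutathione transferase, stood out among metabolic genes. It measured 3.42, 1.16, 1.21 and 4.14 TPM in WT and 9.01, 14.8, 12.3 and 10.9 TPM in KO, so that the lowest KO value exceeded the highest WT value. Its log2 fold change was 2.17 (SE 0.35, limma adjusted p = 0.123). *Lgals3*, the lectin galectin-3, measured 1.98, 5.93, 3.22 and 9.09 TPM in WT and 10.5, 19.2, 15.5 and 25.2 TPM in KO (log2 fold change 1.82, SE 0.42), with WT 4 not far below KO 1. *Gpnmb*, a glycoprotein of lipid-laden macrophages, was at most 0.899 TPM in WT and between 1.66 and 5.44 TPM in KO (log2 fold change 1.77). *Cd300ld3*, of the CD300 family of myeloid receptors (log2 fold change 1.72), and the predicted gene *Gm45837* (2.17) were also among the 8 largest differences without overlap. None of these passed the adjusted threshold.

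In the deposited TPM, genes lower in KO were fewer and their differences smaller. After median-of-ratios scaling the counts were closer, with 862 lower against 1042 higher at an unadjusted limma p under 0.05. With that scaling 494 genes lay wholly below and 615 wholly above. *Nr2c2*, the orphan nuclear receptor TR4, measured 2.04, 2.40, 2.26 and 2.66 TPM in WT and 0.878, 1.08, 1.35 and 1.12 TPM in KO. All KO libraries were below all WT libraries, and the log2 fold change was -0.83 (SE 0.14, limma adjusted p = 0.123). *Pdpr*, a regulatory subunit of pyruvate dehydrogenase phosphatase, measured 7.88, 6.65, 9.32 and 10.1 TPM in WT and 4.02, 4.78, 5.33 and 4.94 TPM in KO (log2 fold change -0.76, SE 0.14). *Slc4a4*, a sodium bicarbonate cotransporter, measured 19.4, 18.2, 16.01 and 16.2 TPM in WT and 9.91, 9.06, 10.6 and 13.3 TPM in KO (log2 fold change -0.69, SE 0.13). The ranges of both genes stood apart between genotypes.

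Further lower genes were those of 2 transport proteins, an enzyme and a receptor. *Slc27a2*, a fatty acid transporter and very long-chain acyl-CoA synthetase, measured 74.1, 78.8, 46.3 and 54.5 TPM in WT and 38.8, 31.7, 31.7 and 39.6 TPM in KO (log2 fold change -0.80, SE 0.18). The WT libraries whose names began with 5 were the high ones, and in females the ranges overlapped (37.1 to 140 TPM in WT and 49.9 to 155 TPM in KO). *Pfkfb2*, which sets the level of fructose 2,6-bisphosphate, measured 3.18, 3.67, 3.55 and 3.54 TPM in WT and 2.14, 2.52, 2.30 and 2.24 TPM in KO (log2 fold change -0.51, SE 0.10). *Insr*, the insulin receptor, measured 9.74, 10.3, 9.97 and 10.8 TPM in WT and 7.80, 7.85, 7.82 and 8.70 TPM in KO. Its difference was small (log2 fold change -0.32, SE 0.08, limma adjusted p = 0.168), with no overlap. *Slc1a3*, a glutamate transporter, was between 10.3 and 14.6 TPM in WT and between 8.90 and 9.61 TPM in KO (log2 fold change -0.45).

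The remaining lower genes included zinc finger genes and non-coding RNAs. The zinc finger gene *Zfp966* measured 2.16, 2.08, 1.89 and 2.23 TPM in WT and 1.20, 1.10, 1.16 and 1.07 TPM in KO (log2 fold change -0.66, SE 0.12). *Zfp318* and *Zfp971* had log2 fold changes of -0.69 and -0.53, and after median-of-ratios scaling *Zfp445* and the splicing-related *Nktr* were also among the 6 lower genes with the smallest p. The nuclear long non-coding RNA *Malat1* was between 19.6 and 25.9 TPM in WT and between 14.1 and 16.7 TPM in KO (log2 fold change -0.45). The processed pseudogene *AC116841.1* had the largest lower value without overlap, at -1.24, followed by the antisense gene *D530033B14Rik* at -0.93. *mt-Nd3*, a complex I subunit encoded in mitochondria, measured 13777, 9687, 9508 and 7145 TPM in WT and 4965, 3440, 6564 and 7024 TPM in KO (log2 fold change -0.88). Its groups barely separated, since WT 4 and KO 4 were almost level.

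**Figure D2:**
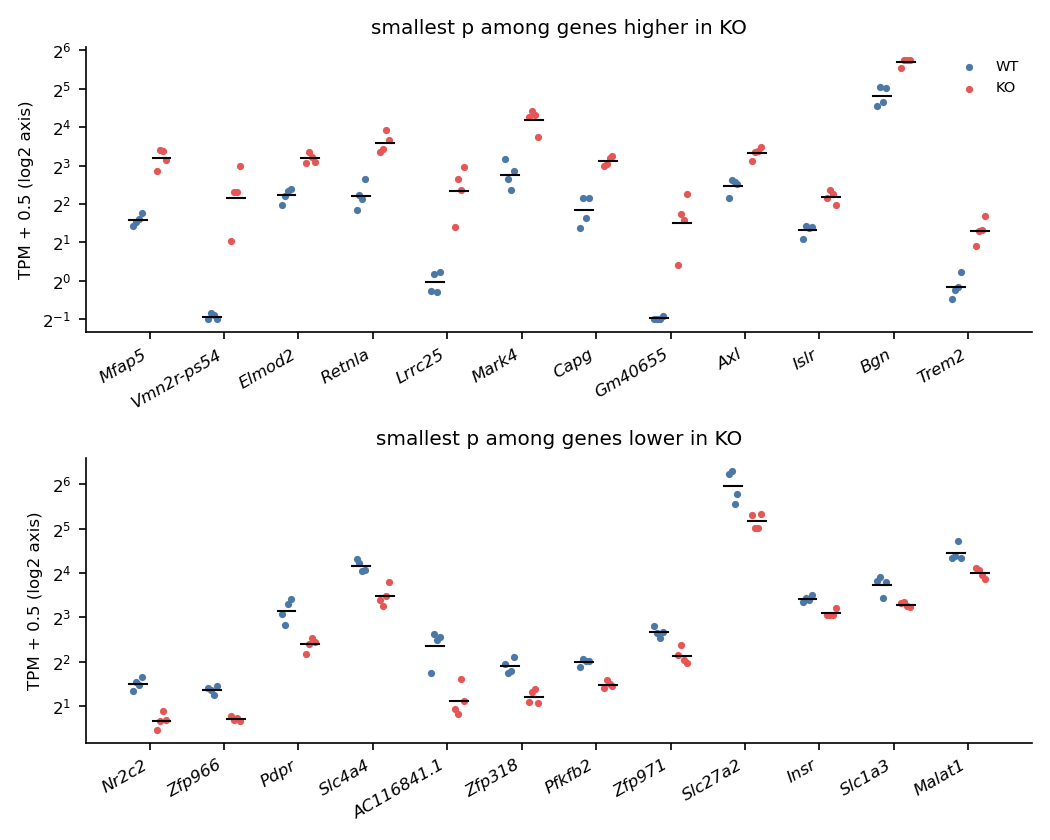
TPM + 0.5 on a log2 axis for the 12 higher (upper panel) and 12 lower (lower panel) genes in male KO that did not overlap between groups and ranked first by p. Points are the 4 WT (blue) and 4 KO (red) libraries and short black lines are the mean on the log scale. *Mfap5* moved from 2.21 to 2.91 TPM in WT to 6.69 to 10.1 TPM in KO. In the deposited TPM the lower genes show narrower gaps than the higher ones.

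The female libraries were read for the same 24 genes. Of the 12 higher genes with the smallest p, 9 had the same direction in females. In 3 (*Vmn2r-ps54*, *Elmod2* and *Axl*) every female KO library was also above every female WT library. *Vmn2r-ps54* was close to silent there, at no more than 0.0903 TPM in WT and from 0.0928 TPM in KO. Of the 12 lower genes, 10 had the same direction and 6 did not overlap in females. For all genes tested, 62.3% had a positive log2 fold change in females, the share to set beside the 9 of 12 higher genes. Of all genes, 4.86% lay wholly above and 3.21% wholly below in female KO. *Pdpr* was between 9.71 and 11.5 TPM in female WT and between 1.91 and 4.24 TPM in female KO. *Nr2c2* was between 2.25 and 3.90 TPM in female WT and between 0.881 and 1.66 TPM in female KO. *Retnla*, in contrast, was at 9.28 to 19.4 TPM in female WT and 9.48 to 13.7 TPM in female KO, above the male WT level in both. In a fit of all 16 libraries, 0 of 12210 genes had an adjusted p under 0.05 for the interaction of sex and genotype (limma, smallest adjusted p 0.216), and 1735 had an unadjusted p under 0.05. Female WT 4 stood apart from the other libraries, with 17.7% of its TPM in unmatched identifiers against at most 0.48% in the male libraries. It entered the fit of the interaction, which was not repeated without it.

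Gene lists with known roles were then read against the ranking. Each is given by the number of its members tested, how many were higher or lower at an unadjusted p under 0.05, and its median log2 fold change beside the 0.16 of all genes. These counts are to be read against the 17.7% of all genes that were higher and 1.07% lower at that threshold, or 8.56% and 7.08% after median-of-ratios scaling. For counts without overlap, 9.55% of all genes were wholly above and 0.673% wholly below in the deposited TPM. After median-of-ratios scaling these were 615 and 494 of 12176 genes. No list was tested as a set. A member under the minimum of 1 TPM in 1 group could be tested through its level in the other. In whole tissue, fewer cells of one type and less RNA per cell cannot be told apart.

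Elastic fibre and TGF-beta genes were higher together. Of 18 tested genes of microfibrils and elastic fibres, 13 were higher and none was lower, under the deposited TPM as well as after median-of-ratios scaling, with a median of 0.62. Every KO library was above every WT library for 7 of them (38.9%, against 9.55% of all genes). Among the 7 were *Efemp2* (log2 fold change 0.62), which helps to assemble elastic fibres, and the crosslinking enzymes *Loxl2* (0.68) and *Loxl3* (0.62). Of 7 small leucine-rich proteoglycans, 4 were higher, with a median of 0.30, although 1 was after median-of-ratios scaling. Of 26 genes of TGF-beta family signalling, 12 were higher and none lower, with a median of 0.31, and 7 were higher after median-of-ratios scaling. *Ccn2*, a matricellular target of TGF-beta and YAP, measured 0.687, 1.07, 0.667 and 2.29 TPM in WT and 4.17, 2.53, 4.88 and 3.64 TPM in KO (log2 fold change 1.42, SE 0.30, limma adjusted p = 0.145). *Fstl1*, a secreted BMP antagonist, had a log2 fold change of 0.85, and the signal transducers *Smad1* and *Smad3* had 0.54 and 0.33. All 4 genes were without overlap in the deposited TPM. After median-of-ratios scaling *Smad3* had 0.18 (limma unadjusted p = 0.103). Fibroblast markers moved with these lists: 11 of 16 tested were higher, including *Mfap5*, which is on both lists, and *Pi16* (1.42), and their summed level was 310 to 554 TPM in WT and 488 to 591 TPM in KO. The part of fibroblast content in the matrix result was not tested.

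Cell cycle genes were higher at low levels. Of 15 tested, 10 were higher and none lower, with a median of 0.43, and with the other scaling 9 were. *Tk1*, the thymidine kinase of S phase, measured 1.29, 1.995, 1.27 and 1.11 TPM in WT and 3.12, 3.28, 3.09 and 4.31 TPM in KO (log2 fold change 1.05, SE 0.17, limma adjusted p = 0.123). *Top2a*, a topoisomerase of dividing cells, was between 0.176 and 0.951 TPM in WT and between 1.47 and 2.92 TPM in KO (1.44). The ubiquitin-conjugating enzyme *Ube2c* (0.85) and the replication helicase subunit *Mcm5* did not overlap either. Of the 32 genes listed, 17 were under the level needed for testing. *Top2a*, *Ube2c* and *Mcm5* had WT means of 0.549, 0.842 and 0.761 TPM and passed the minimum of 1 TPM through KO. Their entry into the counts is thus no separate support for a rise.

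Antigen presentation split between its arms. All 6 tested MHC class II genes were higher with either scaling, with a median of 0.64, whereas none of 17 MHC class I genes was higher or lower at the same threshold (median 0.02). *Cd74*, the invariant chain of class II, measured 39.6, 101, 56.9 and 73.4 TPM in WT and 112, 135, 96.4 and 111 TPM in KO. WT 2 lay above KO 3, so the groups overlapped, and the log2 fold change was 0.81 (SE 0.26, limma adjusted p = 0.203). *H2-Ab1* and *H2-Eb1* had log2 fold changes of 0.75 and 0.59. Class II is expressed by macrophages among other cells, and macrophage markers summed to 52.3 to 102.8 TPM in WT and 129 to 187 TPM in KO, the part of which in this result was not tested. Of 29 interferon-stimulated genes, 2 were higher and 1 lower (median 0.02), and 2 and 2 with the other scaling, with *Irf8*, a factor of myeloid development, at 0.72 and the GTPase *Gbp7* at -0.76.

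Other immune lists were led by genes that macrophages express. Of 12 genes of alternative activation, 11 were higher (median 0.73), among them *Folr2* (1.09), *Cd209f* (0.93) and *Clec10a* (0.78), and 9 were after median-of-ratios scaling. Of 16 genes of lipid-associated macrophages, 7 were higher (median 0.41), and 6 higher and 1 lower with the other scaling. They included *Mmp12*, a macrophage elastase (2.04), which ranged from 0.0662 to 1.44 TPM in WT and from 1.27 to 6.33 TPM in KO. *Trem2*, *Gpnmb* and *Mmp12* had WT means of 0.406, 0.645 and 0.554 TPM and passed the minimum of 1 TPM through KO. So did *Cd209f*, with a WT mean of 0.623 TPM. Of 44 lysosomal genes, 13 were higher and none lower (median 0.20), against 6 and 2 with the other scaling. Among them were *Laptm5* (1.10), *Ctss* (1.47) and *Ctsk* (0.77), the first a membrane protein of haematopoietic cells and the others cathepsins. Of 20 chemokines and their receptors, 5 were higher with either scaling (25%, against 17.7% and 8.56% of all genes), among them *Ccl9* (1.39), *Cxcr4* (0.68) and *Cxcl16* (0.72). Macrophage markers moved with all of these: 10 of 13 tested were higher (median 0.90), including *Lyz2* (1.12) and *Csf1r* (0.90). Their summed level was 52.3 to 102.8 TPM in WT and 129 to 187 TPM in KO. The lists are not separate, since *Cd68* (1.19) is on both the macrophage and the lysosomal list. The part of macrophage content in these lists was not tested.

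Complement genes went both ways. Of 18 tested, 7 were higher and 2 lower with either scaling (median 0.26). *C1qc*, a subunit of C1q made by macrophages, measured 5.21, 11.4, 6.80 and 10.8 TPM in WT and 15.4, 19.9, 16.6 and 21.7 TPM in KO (log2 fold change 1.11). It is also on the list of macrophage markers. *Cfp*, encoding properdin, was also higher (0.54). *Cfd*, the adipokine adipsin, measured 658, 1259, 273 and 354 TPM in WT and 318, 99.3, 72.1 and 80.5 TPM in KO. KO 1 lay within the WT range, and the WT libraries with names beginning with 5 were the highest (log2 fold change -2.19, SE 0.58, limma adjusted p = 0.173).

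Few markers of other leukocytes could be tested. Of 14 neutrophil markers, 2 passed the TPM minimum and neither differed at the unadjusted threshold (*S100a9*, log2 fold change -0.88). None of 16 T and NK cell markers or 12 mesothelial and epithelial markers passed it. *Ighm*, the heavy chain of IgM, measured 12.0, 18.4, 19.9 and 38.4 TPM in WT and 18.2, 97.1, 59.6 and 63.0 TPM in KO (log2 fold change 1.30), with KO 1 inside the WT range, and *Igkc* had -0.25. *Hdc*, the histamine-forming enzyme, was lower without overlap (log2 fold change -0.65), whereas *Kit*, another mast cell marker, had 0.76 with overlap.

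Vessel markers were moderately higher. Of 20 endothelial markers, 9 were higher and none lower (median 0.41), and 7 were after median-of-ratios scaling. *Ramp2*, a receptor component for adrenomedullin, measured 27.5, 45.0, 33.6 and 38.3 TPM in WT and 45.2, 50.1, 51.3 and 48.5 TPM in KO (log2 fold change 0.45), and *Sox17* (0.41) and *Eng* (0.61) did not overlap either. Of 12 mural cell markers, 7 were higher (median 0.42), or 4 with the other scaling. Summed endothelial levels were 531 to 1016 TPM in WT and 863 to 959 TPM in KO, so that WT spanned the KO range. *Apln*, an angiogenic peptide, was between 0.781 and 1.81 TPM in WT and between 1.82 and 4.19 TPM in KO (1.07).

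Lipogenic genes leaned towards KO with wide overlap, few of them past the threshold. All 15 tested had a positive log2 fold change with a median of 0.52, but 4 were past the unadjusted threshold and none after median-of-ratios scaling. *Fasn*, the fatty acid synthase, measured 1113, 1181, 3809 and 2828 TPM in WT and 2073, 6457, 5141 and 4229 TPM in KO. KO 2, 3 and 4 were the highest, and KO 1 was below WT 3 and WT 4. The low WT libraries were those with names beginning with 5. Its log2 fold change was 1.09 (SE 0.48, limma adjusted p = 0.264), next to 1.30 for the desaturase *Scd1*, 1.15 for malic enzyme *Me1* and 0.47 for their regulator *Srebf1*. Among the 5 libraries with names beginning with 9, the median of the list exceeded that of all genes by 0.24, against 0.36 over all 8. In females the log2 fold changes of these 4 genes were negative (-1.52, -1.13, -1.18 and -0.46). *Lep*, the adipokine leptin, was likewise lowest in WT 1 and WT 2 (37.3, 23.3, 62.2 and 96.7 TPM in WT and 64.9, 122, 110 and 105 TPM in KO).

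The balance of glycolytic genes depended on scaling, and muscle RNA varied beside them. Of 22 tested, 10 were higher and 1, *Pfkfb2*, was lower (median 0.41), but the other scaling gave 4 higher and 4 lower. *Hk1*, a hexokinase, measured 10.1, 10.5, 12.5 and 14.3 TPM in WT and 15.9, 20.97, 21.2 and 23.3 TPM in KO (log2 fold change 0.75, SE 0.15, limma adjusted p = 0.143). *Aldoa*, an aldolase abundant in muscle, measured 1477, 1762, 2015 and 2172 TPM in WT and 2366, 3588, 3166 and 2851 TPM in KO (0.69). Both were without overlap. The 16 skeletal muscle markers had a median of 0.49 with none past the unadjusted threshold, and their summed level was 124 to 2767 TPM in WT and 103.3 to 5922 TPM in KO. *Mb*, encoding myoglobin, was highest in KO 1 (257 TPM) and KO 3 (140 TPM) and at 11.7 TPM in KO 4. The part of muscle RNA in the glycolytic result was not tested.

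Thermogenic and respiratory genes lay at or below the typical gene. Of 26 brown adipocyte and thermogenesis genes, 1 was higher and 3 lower, with a median of 0.00 that became -0.17 after median-of-ratios scaling, when none was higher and 6 were lower. The transcription factors *Irf4* (log2 fold change -0.73) and *Lhx8* (-0.68) and the coactivator *Ppargc1a* (-0.31) were the lower ones and overlapped between groups, while *Letmd1*, a mitochondrial protein needed for thermogenesis, had 0.34. *Ppargc1a* measured 5.29, 6.21, 6.68 and 7.09 TPM in WT and 5.10, 4.54, 4.40 and 6.02 TPM in KO. None of 37 complex I genes or 45 genes of complexes II to V was higher or lower in the deposited TPM (medians -0.02 and 0.00), while after median-of-ratios scaling 14 and 11 of them were lower. The 15 genes of the mitochondrial genome had a median of -0.09, and *mt-Nd3* was the 1 of them past the unadjusted threshold. Of 25 fatty acid oxidation genes none was higher or lower (median 0.08), and 5 were lower with the other scaling. Of 19 TCA cycle genes 2 were higher (median 0.16), and 1 was lower with the other scaling.

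Ribosomal protein lists lay below the typical gene, and the proteasome and stress lists lay closer to it. Against the median of all genes, that of cytosolic ribosomal proteins was at -0.13 and that of mitochondrial ones at -0.12. Of 82 cytosolic ribosomal protein genes 1 was higher (median 0.03), as was 1 of 77 mitochondrial ribosomal protein genes (median 0.04), of which 16 were lower after median-of-ratios scaling. Of 37 proteasome genes 3 were higher (median 0.15), and 1 was lower with the other scaling. Of 27 genes of the unfolded protein response 1 was higher (median 0.14), and 3 were lower with the other scaling. Of 26 genes of the integrated stress response, the pathway that induces *Gdf15*, 4 were higher and 1 lower (median 0.11), against 2 and 3 with the other scaling. *Atf5*, a transcription factor of mitochondrial stress, measured 42.6, 70.6, 64.2 and 64.6 TPM in WT and 91.7, 93.7, 73.7 and 85.1 TPM in KO (log2 fold change 0.52, SE 0.17, limma adjusted p = 0.203), without overlap. Of 32 antioxidant and glutathione genes 7 were higher and none lower (median 0.20), but 1 and 3 with the other scaling, led by *Gsta3* and with the secreted *Sod3* at 0.29. Of 254 listed *Zfp* genes, 20 were higher and 7 lower in the deposited TPM, but 5 and 22 after median-of-ratios scaling, a reversal of the balance.

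In most of the remaining metabolic lists the balance of calls turned with scaling. Of 27 insulin signalling genes, 6 were higher and 1 lower (median 0.18), but 3 and 3 after median-of-ratios scaling, and *Akt1*, the kinase downstream of the receptor, had a log2 fold change of 0.45 in the opposite direction to *Insr*. Of 22 genes of branched-chain amino acid catabolism, 4 were higher and 1 lower (median 0.02), but 1 and 7 after median-of-ratios scaling, with the transaminase *Bcat1* at 1.01 and the phosphatase *Ppm1k* at -0.56. Of 22 lipolysis genes 4 were higher and none lower (median 0.21), but none and 3 after median-of-ratios scaling. Of 23 cholesterol synthesis genes 2 were higher (median 0.20), against 1 higher and 1 lower with the other scaling. Triglyceride synthesis (1 of 14 higher and 1 lower, median 0.00) and the circadian clock (3 of 18 higher, median 0.19) had the same counts with either scaling. Of 23 adipokines and batokines, 5 were higher and 1, *Cfd*, was lower (median 0.23), against 4 and 2 with the other scaling, with *Igfbp3* at 0.50 and *Pltp* at 0.56. Of 5 tested markers of Schwann cells and neurons 1 was higher (median 0.28), and of 7 markers of white adipocytes 1, *Lep*, was (median -0.13).

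**Figure D3:**
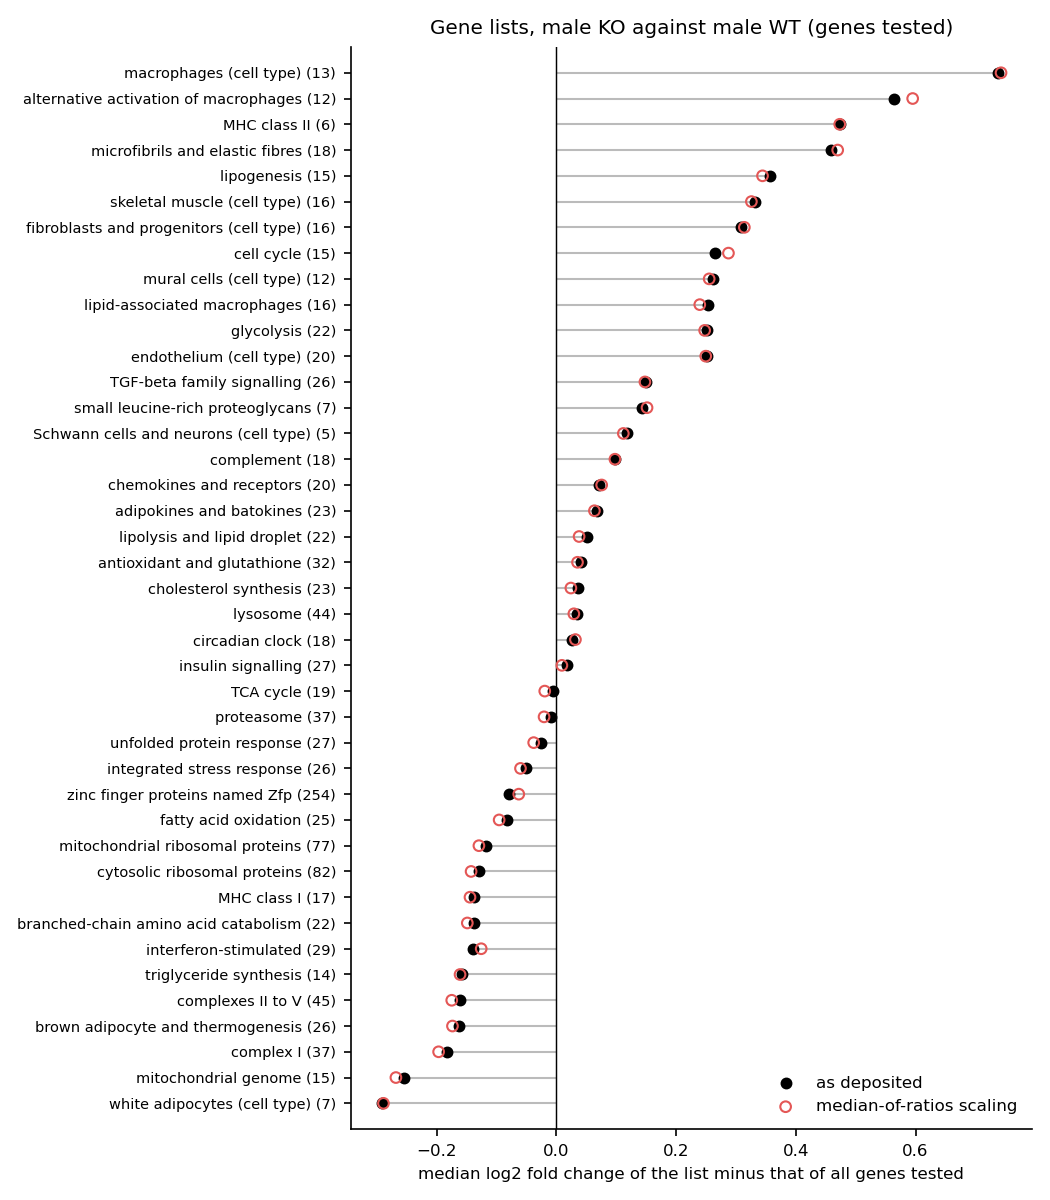
Median log2 fold change of each gene list minus the median of all genes tested, for male KO against male WT, with the number of genes tested in parentheses. Filled points use TPM as deposited and open circles median-of-ratios scaling. Macrophage markers, alternative activation, MHC class II and elastic fibre genes lie farthest to the right, and white adipocyte markers and genes of the mitochondrial genome farthest to the left, under both scalings.

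Genes next to *Ucp1* and *Gdf15* on chromosome 8 were examined because the Cre transgene carries the *Ucp1* promoter and the floxed allele lies at *Gdf15*. On either side of *Ucp1*, *Tbc1d9*, a protein with a TBC domain, and *Elmod2* were both higher in KO without overlap. *Tbc1d9* measured 2.36, 2.15, 2.52 and 1.49 TPM in WT and 3.49, 4.83, 3.90 and 3.95 TPM in KO (log2 fold change 0.80, SE 0.16, limma adjusted p = 0.142). Beyond them, *Rnf150* (0.12) and *Zfp330* (-0.02) differed by less than the spread between libraries, *Mgat4d* was listed at 0 in all 8 libraries and *Clgn* did not exceed 0.125 TPM. *Ucp1* itself had a log2 fold change of 0.05, and its sign and those of *Rnf150* and *Zfp330* changed between settings. The part of the transgene in these differences was not tested.

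Beside *Gdf15*, *Lrrc25*, a leucine-rich repeat protein of myeloid cells, had one of the largest differences of the ranking. It measured 0.326, 0.638, 0.317 and 0.680 TPM in WT and 2.12, 5.75, 4.67 and 7.33 TPM in KO (log2 fold change 2.38, SE 0.32, limma adjusted p = 0.117). All KO libraries were above all WT libraries, while in females neither genotype exceeded 0.855 TPM. The other neighbours had log2 fold changes of 0.49 for *Ssbp4*, 0.35 for *Isyna1*, 0.32 for *Pgpep1*, 0.07 for *Lsm4*, which turned to -0.10 after median-of-ratios scaling, and 0.46 for *Jund*, all with overlap.

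**Figure D4:**
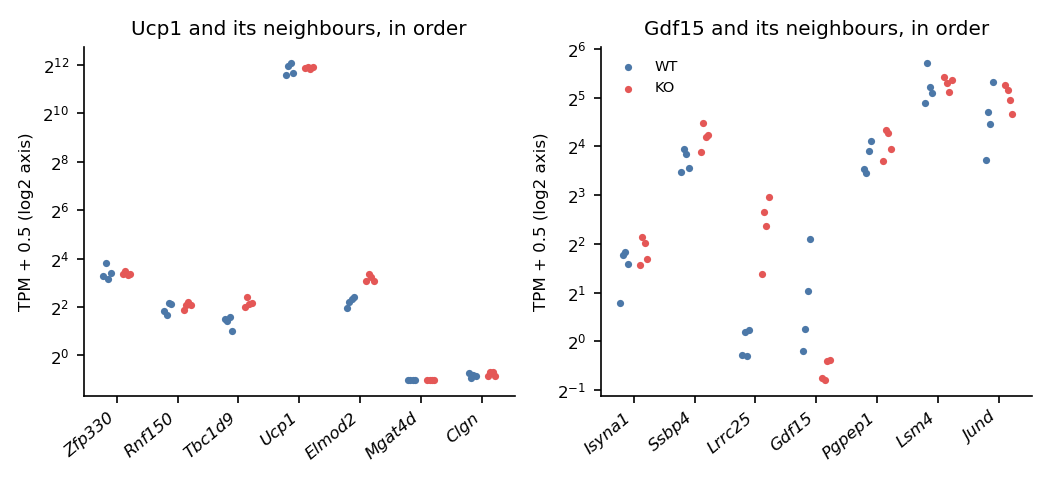
TPM + 0.5 on a log2 axis for *Ucp1* (left) and *Gdf15* (right) and the 3 nearest protein-coding genes on each side, in chromosomal order, with the 4 male WT libraries in blue and the 4 male KO libraries in red. *Elmod2* and *Tbc1d9* separate beside *Ucp1*, which does not, and *Lrrc25* lies higher in KO where *Gdf15* lies lower.

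At the transcript level 7 of 24129 transcripts passed the adjusted threshold (0.029%). At the unadjusted threshold 2701 (11.2%) were higher and 358 (1.48%) lower, and after median-of-ratios scaling 1296 (5.37%) and 1124 (4.66%). Every KO library was above every WT library for 1671 transcripts (6.93%) and below for 205 (0.85%). Protein-coding transcripts were higher at the unadjusted threshold in 13.5% of cases and transcripts annotated as retained introns in 6.74%. The interaction of sex and genotype passed the adjusted threshold for 0 of 24308 transcripts (limma, smallest adjusted p 0.131), while 3344 had an unadjusted p under 0.05.

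Among the called transcripts an identifier without a gene had the largest difference. ENSMUST99999999995, which matches no transcript of the annotation used, was at 0 TPM in all 4 WT libraries and at 36.3, 23.9, 12.1 and 21.2 TPM in the KO libraries (limma adjusted p = 0.000302). It separated the genotypes in females as well, with at most 0.0427 TPM in WT and 20.2 to 78.8 TPM in KO. A companion identifier, ENSMUST99999999996, measured 0.329, 0.709, 2.49 and 3.29 TPM in male WT and 8.35, 32.5, 28.6 and 41.7 TPM in male KO (log2 fold change 3.74, limma adjusted p = 0.130), and did not exceed 1.16 TPM in any female library. Of the 174 unmatched identifiers tested, the first was the 1 that was called. What these sequences are is not given in the sources used here, and they are in no gene total.

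The other 6 called transcripts belonged to 5 genes, none of which passed the adjusted threshold at the level of the gene. *Gm10275-203*, from a transcribed pseudogene, lay between 12.7 and 19.4 TPM in the 4 WT libraries and was listed at 0 in all 4 KO libraries (limma adjusted p = 1.05e-05), so that it fell to nothing detected. The gene *Gm10275* as a whole overlapped between groups, at 149.8 to 226 TPM in WT and 159 to 189 TPM in KO. In females the genotypes overlapped, with female WT 1 at 0 and all female KO libraries at 12.7 to 33.5 TPM. The female difference ran the other way, with a log2 fold change of 2.40 against -5.02 in males. This transcript had the smallest adjusted p for the interaction of sex and genotype (limma, 0.131).

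*Rexo4*, an exonuclease of the nucleolus, exchanged 2 nearly identical transcripts. *Rexo4-201* rose from 0.666, 0.784, 0.732 and 0.751 TPM in WT to 5.88, 5.37, 5.76 and 6.20 TPM in KO, and *Rexo4-202* fell from 3.56, 4.90, 3.76 and 5.30 TPM to 0.00983, 0.173, 0.350 and 0.00731 TPM. The log2 fold changes were 2.35 (limma adjusted p = 0.000302) and -2.96 (limma adjusted p = 0.00737). *Rexo4-201* is 2281 bases long and *Rexo4-202* is 2278. Within the annotation used, the first has 3 stretches of 31 bases of its own while the second has none. In females the 2 transcripts exchanged within genotypes, with *Rexo4-201* high in WT 1, KO 3 and KO 4.

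*Ddx17-202*, a shorter protein-coding transcript of an RNA helicase that takes part in splicing, fell from 7.34, 8.35, 9.55 and 6.74 TPM in WT to 1.68, 2.15, 2.20 and 1.60 TPM in KO (log2 fold change -1.82, limma adjusted p = 0.00737). The groups were far apart and female libraries divided in the same way, at 6.05 to 10.7 TPM in WT and 1.19 to 2.48 TPM in KO. Of its 2791 stretches of 31 bases, 1293 occur in no other transcript of the annotation used. *Flna-214*, a short transcript of filamin A, which crosslinks actin, rose from 0, 0.339, 0 and 0.200 TPM to 3.19, 3.31, 3.90 and 2.37 TPM (log2 fold change 2.56, limma adjusted p = 0.0341). In females it was at most 0.397 TPM in WT and 2.10 to 4.95 TPM in KO. *Ptp4a1-206*, of a phosphatase of growing cells, rose from 0.251 to 0.642 TPM in WT to 2.97 to 5.73 TPM in KO (log2 fold change 2.25, limma adjusted p = 0.0364), but female genotypes overlapped. Of its 4115 stretches of 31 bases, 13 occur in no other transcript of the annotation used. *Ptp4a1-204* and *Ptp4a1-205* of the same gene lay between 49.1 and 139 TPM in the male libraries. With 1 library left out, the call of *Ptp4a1-206* was lost in each case (limma adjusted p = 0.0636 to 0.231), and that of *Flna-214* without WT 1, WT 3 or any KO library (limma adjusted p = 0.0902 to 0.336).

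Within the annotation used, *Flna-214* and *Gm10275-203* can be told from other transcripts through 1 exon junction each. These are shown with 2 bases on either side of the junction in capitals. The transcript set against which the authors assigned reads was not checked. Each run covers all stretches of 31 bases that the transcript shares with no other, 26 for *Flna-214* and 24 for *Gm10275-203*. Sequences are from the GENCODE M21 transcripts on GRCm38, not on the build of the deposited values. That of *Flna-214* lies on the minus strand in coding exons at chrX:74228086-74228115 and chrX:74227732-74227757, and that of *Gm10275-203* on the minus strand in exons without coding sequence at chr10:29699244-29699270 and chr10:29699048-29699074.
Flna-214: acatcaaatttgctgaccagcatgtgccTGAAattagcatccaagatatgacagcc
Gm10275-203: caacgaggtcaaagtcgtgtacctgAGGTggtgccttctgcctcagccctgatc

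Proportions of transcripts within a gene do not depend on library scaling, apart from the effect of the pseudocount. For 17388 transcripts of 5225 genes, the share of the gene's TPM was compared, and 4 passed the adjusted threshold (0.023%). At the unadjusted threshold 575 shares (3.31%) were higher in KO and 675 (3.88%) lower. Every KO library was above every WT library for 360 shares (2.07%) and below for 439 (2.52%). Transcripts annotated as retained introns were more often lower than higher, with 168 of 3619 lower (4.64%) and 56 higher (1.55%), against 368 lower (3.48%) and 418 higher (3.96%) of 10562 protein-coding transcripts.

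Beside *Gm10275-203* and the *Rexo4* pair, the called share was that of *Utrn-206*, a transcript of utrophin, which links actin to the membrane. It held 73.0, 71.7, 68.2 and 67.0% of the gene's TPM in WT and 91.9, 89.0, 89.1 and 91.3% in KO (limma adjusted p = 0.0123). The call of the Utrn-206 share was lost among the libraries with names beginning with 9 (limma adjusted p = 0.282), in the fit of all 16 libraries (0.746) and without any 1 of WT 1, WT 3, KO 1, KO 3 and KO 4 (0.0543 to 0.082). The long transcript *Utrn-201* made up 21.4 to 23.8% in WT and 6.14 to 8.69% in KO (limma adjusted p = 0.054). Within the annotation used, *Utrn-206* has 930 of 5721 stretches of 31 bases of its own. *Utrn-201* has 2 of 12352, so its share rests largely on how shared reads were split. The total of *Utrn* was 9.88 to 17.08 TPM in WT and 12.3 to 15.5 TPM in KO. In females *Utrn-206* held 86.9 to 90.9% in KO and 69.1, 73.3, 57.3 and 4.08% in WT, the last in the library that stands apart.

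Other shares followed genotype closely at adjusted p of 0.0540 to 0.0631 in males. *Dock9-203*, from an activator of CDC42, held 50.7 to 56.3% in WT and 74.3 to 80.9% in KO. *Dock9-206* held 23.2 to 28.3% in WT and 7.56 to 10.9% in KO. Of their stretches of 31 bases, 44 of 3637 in *Dock9-203* and 22 of 7338 in *Dock9-206* are their own, against 498 of 3267 in *Tnrc6a-208*. The *Dock9* shares thus rest largely on how shared reads were split. *Tnrc6a-208*, annotated as a retained intron of a gene for microRNA silencing, held 25.1 to 35.0% in WT and 54.5 to 58.2% in KO. *Ddx17-202* held 11.6 to 15.3% in WT and 3.10 to 4.18% in KO. None of these 4 overlapped between genotypes in females. *Mtfr1l-205*, with 61 of 1738 stretches of its own, also separated in males but not in females. Its male shares were 3.28 to 12.4% in WT and at most 0.171% in KO. Further shares separated in the same way in both sexes, of which 4 are given as examples. *Macf1-210*, of an actin and microtubule linker, held 15.6 to 17.4% in male WT and 2.46 to 5.86% in male KO. *Dst-220*, of a related linker, held 4.405 to 8.36% and 1.25 to 2.18%, and *Golga4-201*, of a Golgi tether, 13.8 to 19.8% and 4.93 to 6.16%. *Ogt-204*, a retained intron transcript of the O-GlcNAc transferase, held 8.37 to 10.2% in male WT and 1.72 to 3.01% in male KO.

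Across all shares, 55 of the 360 that were wholly above in male KO were also wholly above in female KO (15.3%, against 5.05% of all shares), and 91 of the 439 wholly below were also below in females (20.7%, against 4.48% of all). The direction was opposite for 34. Without female WT 4 the counts were 62 (17.2%, against 7.02%) and 96 (21.9%, against 6.77%). Among the 5 male libraries with names beginning with 9 alone, 0 shares passed the adjusted threshold in limma, and 592 were higher and 493 lower at the unadjusted one.

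**Figure D5:**
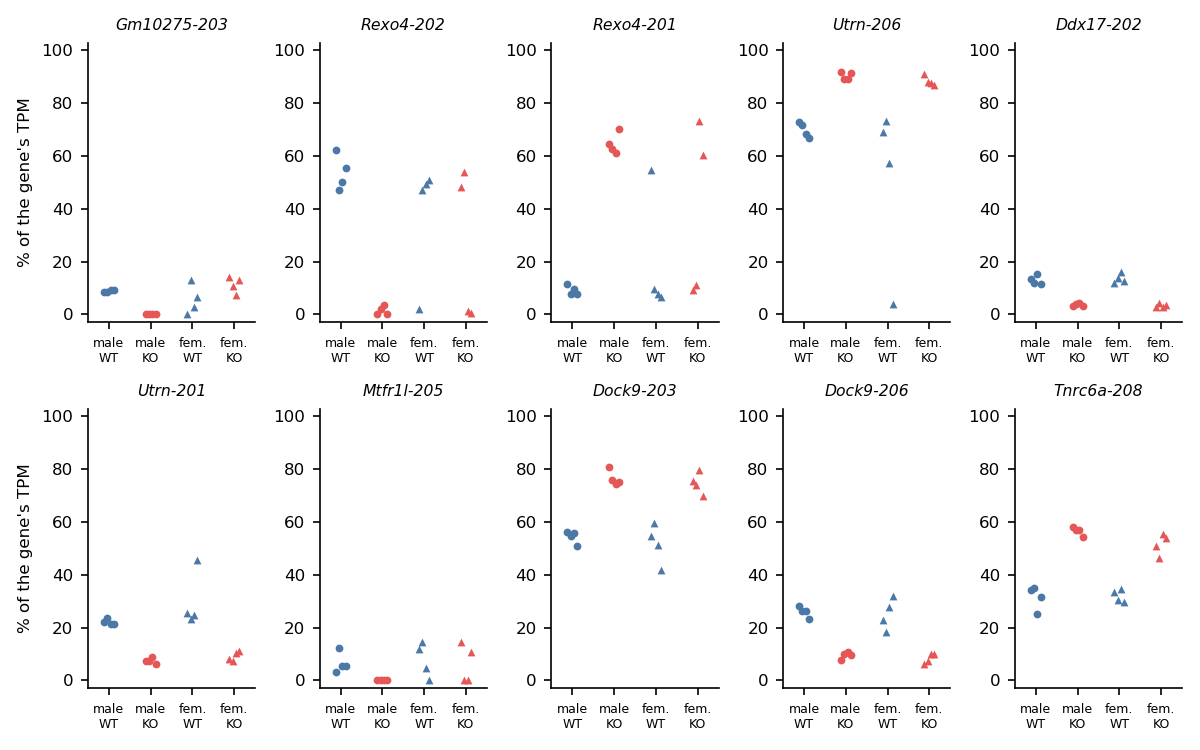
Share of the gene's TPM (%) held by the 10 transcripts with the smallest p for their share, with 1 point per library (blue, WT, and red, KO, with circles for males and triangles for females). *Utrn*, *Dock9*, *Tnrc6a* and *Ddx17* transcripts divide by genotype in both sexes, while *Rexo4*, *Gm10275* and *Mtfr1l* transcripts divide by genotype in males and overlap in females.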

How the data were processed

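Reads of stranded mRNA libraries were quantified by the authors with kallisto 0.46.2 on GRCm39, per the submitters' processing notes, and deposited as TPM per transcript. The authors' DESeq2 test needs counts and was not run. Identifiers were matched without version to GENCODE M21 (135051 of 137438) and TPM summed per gene. Genes or transcripts with a mean of at least 1 TPM in the 8 male libraries were tested on log2(TPM + 0.5) with limma 3.58.1 (R 4.3.3; lmFit, eBayes with trend) and Benjamini-Hochberg adjustment over all tested. Fold changes on this scale understate changes of low genes. Transcript shares were tested as log2 ratios to the other transcripts of genes with at least 5 TPM and at least 2 transcripts tested, and female shares were compared by library values alone. Stretches of 31 bases, the default word length of kallisto, were compared across GENCODE M21 transcripts. The depth behind a TPM is unknown, so no counting interval is given. The labels number the libraries as separate samples without saying that each is 1 animal, so p-values measure the spread between these libraries.

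Members and lists were chosen with earlier results of these data known. Named genes were *Gdf15*, the neighbours of *Gdf15* and *Ucp1*, genes with adjusted p under 0.05, the 12 higher and 12 lower with the smallest p and no overlap, the 8 in each direction with the largest change among those with unadjusted p under 0.05 and no overlap, the 6 in each direction after median-of-ratios scaling, up to 4 members of each list and its cell markers, and the 10 transcripts in each direction and 10 shares with the smallest p. The shares of *Macf1*, *Dst*, *Golga4* and *Ogt* were chosen after their values were seen. Replicate numbers were not taken as pairs, since the correlations of same-numbered deviations were 0.20, -0.09, 0.04 and 0.35. The fit was tested on simulated data. Alternatives covered the pseudocount, TPM minimum, scaling, variance trend, replicate block, library name prefix, all 16 libraries in one fit, and each library left out.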

Additional observations from a re-analysis of the deposited data

Results flagged for a closer look

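In 7 cases 1 library lay far from the other 3 of its group, with a gap to its nearest neighbour that took more of the group's range than the 95% critical value of Dixon's test for 4 samples allows. Chance alone marks about 1 in 20 groups, and the number of groups checked is not given, so the 7 are not read as an excess. In WT, *Gm40655* reached 0.0329 TPM in WT 4 while the others were at 0, *AC116841.1* was 2.87 TPM in WT 1, below the others, and *Malat1* was 25.9 TPM in WT 3, above the others. In KO, *Bgn* was 46.0 TPM in KO 1, below the others, and *Insr* was 8.70 TPM in KO 4, above the others. *Gpat4-203* was 1.30 TPM in KO 4, below the others. *Mtfr1l-205* was 0.0861 TPM in KO 3, while the others were at or near 0.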

How the results depend on the processing

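*Gdf15* was lower under all alternatives run. Its log2 difference was -1.71 to -0.94 with 1 library left out, with an exact permutation p of 0.0571 without any 1 KO library, where 0.0286 was the smallest possible, and -2.09 with names beginning with 9 (exact p = 0.1, the smallest possible). Genes past the adjusted threshold, 1 as reported, were 2 with a pseudocount of 0.1, 0 without a TPM minimum, 3 after median-of-ratios scaling, 6 without mitochondrial transcripts, 9 with names beginning with 9, 40 with all 16 libraries and 0 to 5 with 1 library left out. Higher genes, 2150 as reported, were 1426 at a minimum of 5 TPM, 1042 after median-of-ratios scaling and 1138 to 2878 with 1 library left out (1279 without WT 1, 1138 without KO 2, 1275 without KO 3). Lower genes, 130 as reported, were 482 without a minimum, 56 at 5 TPM, 862 after median-of-ratios scaling, 443 without mitochondrial transcripts and 97 to 186 with 1 library left out. Transcripts past the adjusted threshold, 7 as reported, were 4 with a pseudocount of 0.1, 2 at 5 TPM, 22 after median-of-ratios scaling, 19 without mitochondrial transcripts, 25 with all 16 libraries and 3 to 15 with 1 left out. Higher transcripts were 4913 without a minimum, 1336 at 5 TPM, 1296 after median-of-ratios scaling, 1756 without mitochondrial transcripts and 1460 to 3598 with 1 left out, and lower ones 1891, 103, 1124, 770 and 262 to 457. Shares past the adjusted threshold, 4 as reported, were 14 with a pseudocount of 0.1, 10 without a minimum, 1 at 5 TPM, 13 without a variance trend, 0 with names beginning with 9, 17 with all 16 libraries and 3 to 7 with 1 left out. Higher shares were 1037 without a minimum, 179 at 5 TPM and 439 to 725 with 1 left out, and lower ones 2867, 180 and 556 to 756. Lists at least 0.25 above the median of all genes, 12 of 41, were 8 to 11 with 1 left out. Lists at least 0.25 below, 2, were 1 with a pseudocount of 1, 0 without a minimum, 1 at 5 TPM, 1 without mitochondrial transcripts, 0 with names beginning with 9 and 1 to 3 with 1 left out. A replicate block left adjusted calls of 0 genes, 2 transcripts and 1 share, and *Gdf15* was at -1.38 (exact p = 0.125, the smallest possible). The numbers do not pair the libraries. The cause of these changes was not tested.

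Log2 fold changes of 7 genes turned sign under at least 1 alternative. With median-of-ratios scaling these were *Lsm4* (-0.0982), *Rnf150* (-0.0316), *Ucp1* (-0.122) and *S100b* (-0.0186), and without mitochondrial transcripts *Lsm4* (-0.0383) and *Ucp1* (-0.0612). With names beginning with 9 they were *Zfp330* (0.116), *Rnf150* (-0.0203), *Ucp1* (-0.0111), *Gpat3* (-0.0407), *Tap1* (0.0350) and *S100b* (-0.0173). With 1 library left out, *Lsm4* ranged from -0.0435 to 0.228, *Zfp330* from -0.111 to 0.109, *Ucp1* from -0.0359 to 0.132 and *Tap1* from -0.369 to 0.0337. Over single genes, transcripts, shares and list medians, 4521 comparisons with an alternative kept their direction and their side of the threshold or spread, 75 gained a call, 58 lost it, 10 moved by more than the spread between libraries and 18 turned sign. *Mfap5* had adjusted p from 0.00484 to 0.142 over its alternatives. TPM hold no read depth, which limits what can be said of genes near the minimum.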
